A study of Mus musculus with 3 samples.

Results

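The genes of 58 histone modifiers, chromatin readers and chromatin remodelers were examined in RNA bound to the chromatin of mouse macrophages. The genes were chosen by symbol, and all 58 of them were found among 55536 annotated genes and had a mean expected count over the minimum of 10 used for 13434 genes. The cells were macrophages grown from bone marrow of C57BL/6J mice and stimulated for 90 minutes with lipid A at 100 ng/ml, and RNA of their chromatin fraction was sequenced after removal of ribosomal RNA. Lipid A is the part of bacterial lipopolysaccharide that Toll-like receptor 4 detects. The samples formed 1 group of 3 biological replicates with the same donor label, and no untreated cells or other genotype were analysed here, so every value is a level after stimulation and not a response to it. The age and sex of the mice were not given in the labels.

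Histones carry methyl and acetyl groups that are added by methyltransferases and acetyltransferases, taken off by demethylases and deacetylases, and bound by reader proteins such as the bromodomain proteins. Remodelers use ATP to slide, eject or exchange nucleosomes. In macrophages such enzymes are known for setting which enhancers and promoters respond to bacterial products and for limiting the response. RNA of the chromatin fraction holds transcripts still attached to the template, so introns that will later be removed can be present in it.

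Depth was 11277198, 24965749 and 19794886 expected counts for replicates 1 to 3, and the 58 genes took 1.28%, 1.85% and 1.74% of the counts in protein-coding genes. The starting amounts were 1 µg, 250 ng and 500 ng for replicates 1 to 3, so amount and replicate cannot be told apart. The lowest count of any of the 58 genes in any library was 53, for Hdac7 in replicate 1, and a count of 0 would have allowed up to 0.266, 0.12 and 0.152 CPM in replicates 1 to 3. Of 12 macrophage marker genes, 9 were called above the bound described in the next paragraph, and their TPM summed to 1180, 687 and 891 in replicates 1 to 3. The summed TPM of markers of other cells ranged from 0 to 1.59 for neutrophils, from 0.98 to 3.21 for T and NK cells, from 0.57 to 0.79 for B cells, from 0.4 to 1.96 for mast cells and basophils, from 2.24 to 3.63 for stromal and endothelial cells and from 0.49 to 2.55 for erythroid cells. Among these markers Cd3e, Cd8a, Ly6g, Mpo, Elane, Cpa3 and Mcpt8 were listed at 0 in all 3 libraries. Others of the same lists were detected. In replicates 1 to 3 Cd4 had 0.25, 0.88 and 1.82 TPM and Lck 1.98, 0.1 and 1.33 TPM. Kit had 1.96, 0.4 and 0.57 TPM, Kdr 2.94, 1.26 and 1.74 TPM and Alas2 2.55, 0.46 and 0.74 TPM. No marker of B cells or of stromal and endothelial cells was at 0 in all 3 libraries. In such bulk samples fewer cells expressing a gene and less RNA per cell cannot be told apart.

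Most of the 58 genes stood above the typical expressed coding gene in this fraction. Levels are given in TPM (a share of all transcripts that is corrected for length, so that genes can be compared) and as a log2 level, which is log2(TPM + 1) minus the median of 10520 expressed protein-coding genes in the same library. That median lay at 5.5, 3.7 and 4.92 TPM in replicates 1 to 3. Limma's treat test of whether a level lay more than 1 log2 unit (2-fold) from the median called 34 of the 58 genes above and 0 below, with Benjamini-Hochberg adjustment over all 13434 genes. The same test called 24.1% of expressed protein-coding genes above and 19.5% below, and 21.3% of all genes in each direction. The 58 genes were chosen with earlier results of these data known, and the effect of that choice on their share was not tested. None of the 58 was called below by edgeR or DESeq2 either, 0 had an unadjusted p under 0.05 in that direction, and Hdac7, the lowest, had an adjusted p of 0.743. The log2 level of the 58 had a median of 1.89 and ran from -1.03 for Hdac7 to 5.43 for Brd2. These counts depended on the reference. With a minimum mean count of 100 in place of 10 the reference median moved up by 1.07 log2 units. In that setting 19 of the 58 genes were called above and 3 below. The share of all genes called is given for the minimum of 10 only, so these counts cannot be set against genes at large.

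**Figure D1:**
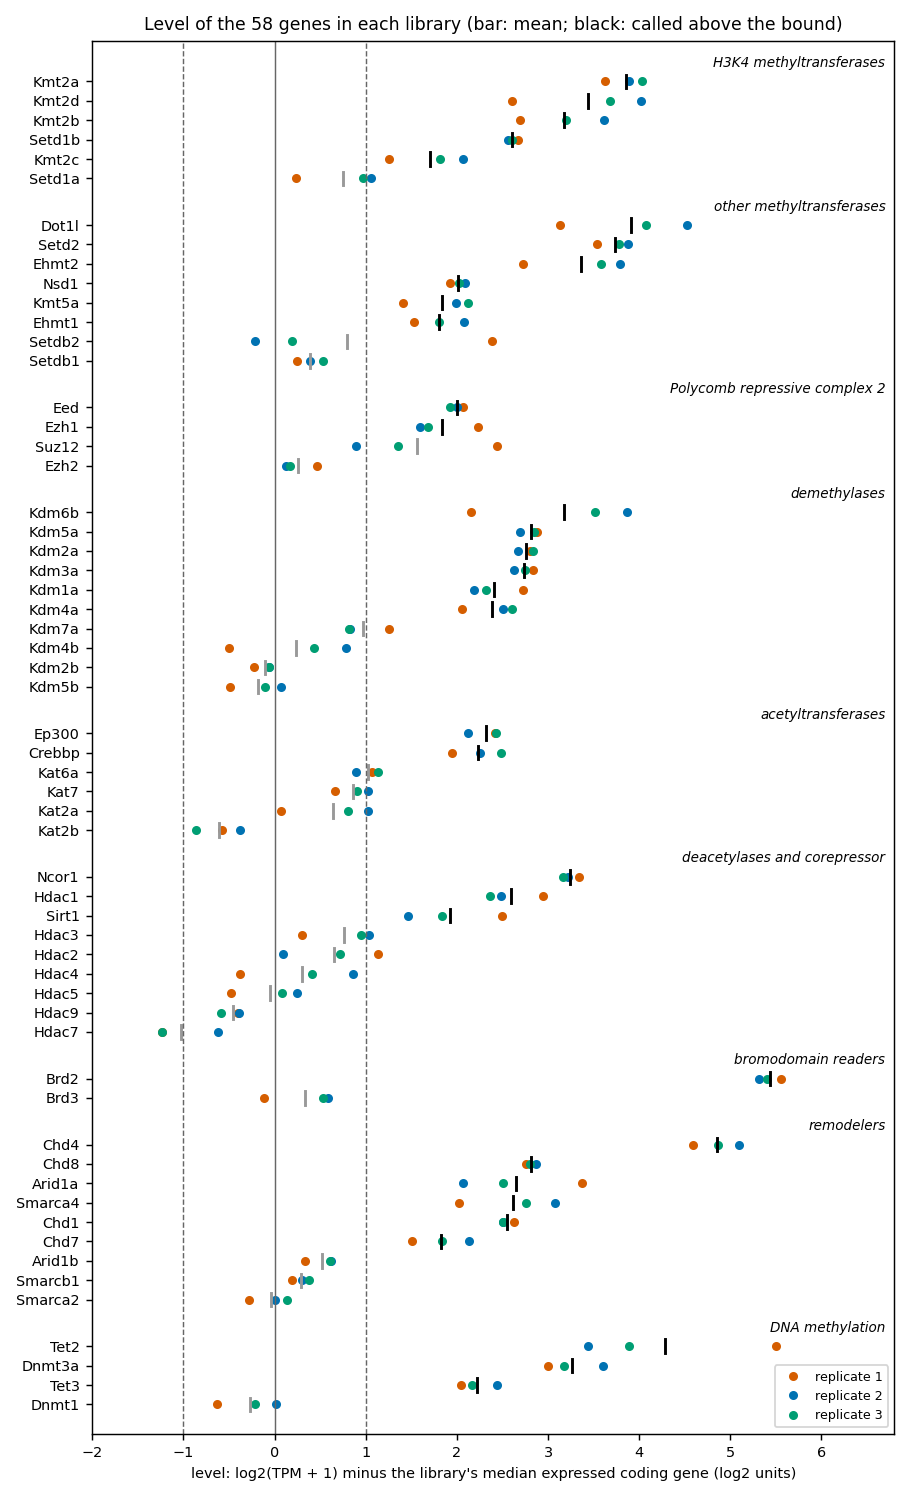
Log2 level of each of the 58 genes in each of 3 libraries (points, coloured by replicate), grouped by role and ordered by mean; short vertical bars are means, black where the gene was called above the bound and grey where it was not, and dashed lines mark 1 log2 unit on either side of the reference. Brd2, Chd4 and Tet2 have the highest means at 5.43, 4.85 and 4.28, Hdac7 the lowest at -1.03, and the points of Setdb2, Kdm6b and Tet2 lie farthest apart.

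Promoter sequences are shown for 4 of the 10 genes highest in TPM, and for Setdb2, the gene that varied most between libraries. Promoters from RefSeq (build GRCm38.p6) matched 46 of the 58 genes, and the 250 bases before the start site nearest the most abundant coding isoform were read. For Hdac4, Hdac9, Ncor1, Ehmt1, Tet3 and Chd8 that site lay 13251 to 204840 bases from the isoform's start. Those of Chd4 (chr6:125095913-125096162, plus strand), Tet2 (chr3:133544391-133544640, minus strand), Dot1l (chr10:80754953-80755202, plus strand), Ehmt2 (chr17:34898224-34898473, plus strand) and Setdb2 (chr14:59440881-59441130, minus strand) are written 5′ to 3′, and capitals mark the motifs searched on both strands.
Chd4: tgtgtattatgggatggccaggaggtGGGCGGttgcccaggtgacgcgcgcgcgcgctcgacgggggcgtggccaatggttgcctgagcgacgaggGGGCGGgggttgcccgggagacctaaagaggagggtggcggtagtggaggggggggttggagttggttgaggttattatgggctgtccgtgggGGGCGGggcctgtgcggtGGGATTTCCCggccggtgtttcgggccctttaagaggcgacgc
Tet2: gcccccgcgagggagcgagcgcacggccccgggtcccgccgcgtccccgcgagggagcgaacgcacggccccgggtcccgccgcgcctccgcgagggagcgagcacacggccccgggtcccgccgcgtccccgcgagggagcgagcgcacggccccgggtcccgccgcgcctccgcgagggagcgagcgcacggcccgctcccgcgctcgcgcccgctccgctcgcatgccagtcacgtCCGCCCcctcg
Dot1l: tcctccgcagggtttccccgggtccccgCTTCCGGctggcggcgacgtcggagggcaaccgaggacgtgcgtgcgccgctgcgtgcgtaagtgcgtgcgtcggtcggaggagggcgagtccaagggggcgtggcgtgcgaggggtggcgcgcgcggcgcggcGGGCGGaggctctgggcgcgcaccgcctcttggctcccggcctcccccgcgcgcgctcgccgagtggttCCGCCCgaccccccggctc
Ehmt2: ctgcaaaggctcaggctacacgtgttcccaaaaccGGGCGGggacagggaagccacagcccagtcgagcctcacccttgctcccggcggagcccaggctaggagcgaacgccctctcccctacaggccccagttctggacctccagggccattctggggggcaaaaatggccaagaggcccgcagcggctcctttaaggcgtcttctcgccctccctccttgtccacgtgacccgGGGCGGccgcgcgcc
Setdb2: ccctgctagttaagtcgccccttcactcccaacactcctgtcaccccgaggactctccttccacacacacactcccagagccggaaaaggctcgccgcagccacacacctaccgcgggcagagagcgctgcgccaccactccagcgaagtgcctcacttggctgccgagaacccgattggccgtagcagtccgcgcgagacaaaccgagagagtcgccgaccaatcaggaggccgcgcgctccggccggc

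The 46 promoters matched were richer in GC and in CpG than RefSeq promoters at large. The latter were not limited to expressed genes or to 1 site per gene, so a difference from other expressed genes is not shown. The median GC content was 68.0% over the 46 promoters, against 52.4% over 32817 RefSeq promoters, and the median ratio of observed to expected CpG was 0.91, against 0.373. A GC box (GGGCGG) was found in 31 of 46, or 67.4%, against 32.7% of all promoters. A base that lay in matches of different motifs was counted for each. The TATA box letters TATAAA were in 0 of 46, against 12.4%. An ETS motif (CCGGAAG) was in 5 of 46, or 10.9%, against 6.9%, namely those of Dot1l, Setdb1, Kdm3a, Kdm7a and Smarca2. An interferon response element, searched as TTTC, 2 free bases and TTTC, was in 0 of 46, against 2.97%. For NF-kB, GGG, 2 free bases and TTTCC were found in 1 of 46 (Setdb1), or 2.17%, against 1.41%. The kB consensus, tried only after the printed promoter of Chd4 had been seen to hold a match to it, was in 1 of 46 (Chd4), or 2.17%, against 3.9%. These matches describe letters in a window and were not tested.

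Among the methyltransferases of histone H3 lysine 4, which mark promoters and enhancers, 5 of 6 genes were called above. Kmt2a (chromosome 9, 44803355 to 44881296) had 79.2, 68.8 and 96.0 TPM in replicates 1 to 3, a mean of 81.3 ± 13.7 TPM (SD, n = 3) and a level of 3.85 ± 0.21 (adjusted p = 2.77e-05). Replicate 3 was the highest library and replicate 2 the lowest. Kmt2b, its close relative, averaged 50.2 ± 8.14 TPM. Kmt2c and Kmt2d, which act mainly at enhancers, differed from each other: Kmt2c averaged 17.6 ± 2.81 TPM, while Kmt2d had 38.6, 75.2 and 74.9 TPM. Replicate 1 was the low library for Kmt2d, whose level of 3.44 ± 0.74 still passed the test (adjusted p = 0.000514). The call for Kmt2c (level 1.71 ± 0.42, adjusted p = 0.0169) was lost without replicate 2 (adjusted p = 0.112), without replicate 3 (0.107) and in the alignment-free quantification (0.818). Setd1a and Setd1b, the catalytic subunits of the SET1 complexes, had 8.68 ± 1.98 and 34.1 ± 6.96 TPM, and Setd1a was the member of the group that was not called (level 0.75). Setd1a shares 3523 exon bases on the same strand with the coding gene Gm49388 (0.863 TPM), so its reads could be split between the entries.

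Of 8 other methyltransferases, 6 were called above. Dot1l (chromosome 10, 80755206 to 80795461), the H3 lysine 79 methyltransferase, had 55.8, 107 and 98.1 TPM in replicates 1 to 3 (level 3.91 ± 0.71, adjusted p = 0.000209). Replicate 1 was again the low library. Setd2, which writes H3 lysine 36 trimethylation behind elongating polymerase, was steadier at 74.8, 68.3 and 80.5 TPM (level 3.74 ± 0.17, adjusted p = 2.88e-05). Ehmt1 and Ehmt2 (GLP and G9a) methylate H3 lysine 9 as a pair: Ehmt1 averaged 18.7 ± 0.949 TPM, and Ehmt2 (chromosome 17, 34898469 to 34914052) had 41.8, 63.8 and 69.9 TPM. The call for Ehmt1 was narrowly lost without replicate 2 (adjusted p = 0.0501) and without replicate 3 (0.0511), while that for Ehmt2 (level 3.36 ± 0.57, adjusted p = 0.00027) was kept. Nsd1, an H3 lysine 36 methyltransferase, averaged 21.9 ± 2.57 TPM and Kmt5a, which monomethylates H4 lysine 20, 19.6 ± 4.5 TPM; Kmt5a was not called without replicate 3 (adjusted p = 0.0816) or from coding isoforms alone (level 1.33).

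The H3 lysine 9 methyltransferases Setdb1 and Setdb2 were not called. Setdb1, which silences retroelements, had 6.75, 5.15 and 7.53 TPM in replicates 1 to 3. Setdb2, which in mouse macrophages is known as an interferon-induced repressor of inflammatory genes, had 33.0, 3.07 and 5.73 TPM. Replicate 1 stood far above the other libraries for Setdb2, with 776 expected counts against 163 and 233, and the SD of its log2 CPM, 1.29, was the largest of the 58. Setdb2 had a level of 0.79 ± 1.40 and was above Setdb1 in replicate 1 and below it in replicates 2 and 3.

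Polycomb repressive complex 2 places H3 lysine 27 methylation through Ezh1 or Ezh2, with Eed and Suz12 as core partners, and 2 of the 4 genes were called above. Ezh1 and Ezh2 averaged 20.2 ± 8.35 and 5.93 ± 1.96 TPM. Ezh1, the subunit known from non-dividing cells, was called (adjusted p = 0.00659) while Ezh2 was not (level 0.26). The scaffold subunit Eed had 26.3, 17.8 and 21.6 TPM (level 2.00 ± 0.07, adjusted p = 0.00147), but was not called from its coding isoforms alone (level 0.41). Suz12 had 34.2, 7.68 and 14.1 TPM. Replicate 1 was the high library for Suz12 (log2 CPM of 5.31, 4.42 and 4.96), which missed the threshold (level 1.56 ± 0.80, adjusted p = 0.117). It passed without replicate 2 (0.0352), with edgeR (0.0239) and with DESeq2 (0.014).

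Among 10 demethylases, 6 were called above. Kdm6b (chromosome 11, 69398508 to 69413675), which removes H3 lysine 27 methylation and is known in mouse macrophages as a gene induced by lipopolysaccharide, had 28.0, 67.7 and 66.8 TPM in replicates 1 to 3 (level 3.18 ± 0.90, adjusted p = 0.00136). Replicate 1 lay below both other libraries. An antisense gene, Kdm6bos (7.4 TPM), shares 286 exon bases with it on the opposite strand, and strand use in the counting is not given in the sources used here. Kdm2a, Kdm4a and Kdm5a, demethylases of H3 lysine 36, lysine 9 and lysine 4, were called above, and their relatives Kdm2b, Kdm4b and Kdm5b were not. Kdm2a had 44.1, 28.8 and 41.0 TPM, against 4.55, 3.52 and 4.68 TPM for Kdm2b. Kdm4a had 26.1, 25.8 and 35.2 TPM, against 3.61, 7.08 and 6.99 TPM for Kdm4b. Kdm5a had 46.7, 29.3 and 41.8 TPM, against 3.62, 3.92 and 4.51 TPM for Kdm5b. In each pair all 3 libraries of the first gene were above all 3 of the second. Kdm3a, an H3 lysine 9 demethylase, averaged 37.5 ± 8.81 TPM, and Kdm1a, the flavin-dependent LSD1, 30.4 ± 10.8 TPM, both called. Kdm7a averaged 10.5 ± 3.69 TPM and was not called (level 0.97).

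The coactivators Crebbp and Ep300 were the 2 of 6 acetyltransferases called above. Crebbp averaged 25.9 ± 5.56 TPM and Ep300 28.0 ± 7.53 TPM. Kat6a (10.8 ± 2.7 TPM), Kat7 (9.28 ± 0.78 TPM) and Kat2a (7.93 ± 1.87 TPM) lay between 0.64 and 1.03 on the log2 level and were not called. Kat2b, the relative of Kat2a also known as PCAF, had 3.35, 2.61 and 2.26 TPM, the second lowest mean of the 58 genes.

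Deacetylases were the lowest group by median level, at 0.65, and 3 of 9 genes were called above, counting the corepressor Ncor1. Among expressed protein-coding genes 24.1% were called above. Ncor1 (chromosome 11, 62316426 to 62458541), which holds Hdac3 at repressed genes, had 65.0, 42.9 and 52.0 TPM in replicates 1 to 3 (level 3.24 ± 0.09, adjusted p = 5.27e-05). Hdac1 averaged 34.5 ± 12.6 TPM and was called (adjusted p = 0.000473), but not from its coding isoforms alone (level 1.35, adjusted p = 0.0784). Hdac2 averaged 8.66 ± 4.64 TPM and was not. Sirt1, which needs NAD as a cosubstrate, averaged 22.6 ± 11.9 TPM and was called (adjusted p = 0.00885), but not from its coding isoforms alone (level 0.95). Hdac3, the enzyme of the Ncor1 complex, averaged 8.69 ± 1.72 TPM. The class IIa enzymes Hdac4, Hdac5, Hdac7 and Hdac9, which shuttle between nucleus and cytoplasm, were all uncalled and low: Hdac4 averaged 6.14 ± 1.87 TPM and Hdac9 had 3.93, 2.58 and 2.93 TPM. Hdac5 had 3.67, 4.6 and 5.25 TPM and an SD of 0.95 on the log2 CPM scale, with 79 expected counts in replicate 1 against 294 and 288. Hdac7 had 1.78, 2.06 and 1.51 TPM, the lowest mean of the 58, from 53, 159 and 101 expected counts.

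The readers Brd2 and Brd3, bromodomain proteins that bind acetylated histones, differed in level. Brd2 (chromosome 17, 34112023 to 34122634) had 306, 185 and 249.6 TPM in replicates 1 to 3, the highest mean of the 58 at 247 ± 60.6 TPM (level 5.43 ± 0.13, adjusted p = 7.13e-06). Brd3 had 5.0, 6.06 and 7.56 TPM and was not called. All libraries of Brd2 were above all libraries of every other member except Tet2 in replicate 1. Coding isoforms held 12.6%, 15.2% and 14.6% of the TPM of Brd2 in replicates 1 to 3, so its rank rests mostly on other isoforms. In expected counts it had 5103, 8540 and 8762, below the 6524, 22908 and 19351 of Kmt2d. Brd2 shares 360 exon bases with H2-DMa (14.2 TPM) and 405 with the antisense gene CR974462.3 (9.4 TPM), both on the opposite strand.

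Of 9 remodelers, 6 were called above. Chd4 (chromosome 6, 125095981 to 125130591), the ATPase of the NuRD complex, had 155, 159.5 and 171 TPM (level 4.85 ± 0.25, adjusted p = 1.15e-05). On the log2 CPM scale it had 8.47, 9.87 and 9.47 (SD 0.72), so replicate 1 was the low library there, and close to the others in TPM. The SWI/SNF ATPase Smarca4 (BRG1) had 25.3, 38.8 and 39.2 TPM (level 2.62 ± 0.55, adjusted p = 0.00115), while the alternative ATPase Smarca2 (BRM) had 4.35, 3.74 and 5.52 TPM. The SWI/SNF subunit Arid1a had 66.2, 18.8 and 32.7 TPM, with replicate 1 high, but its log2 CPM of 7.06, 7.07 and 7.31 was not high in replicate 1. Its relative Arid1b had 7.16, 6.21 and 8.04 TPM. The core subunit Smarcb1 averaged 5.97 ± 1.05 TPM. Smarca2, Smarcb1 and Arid1b were the remodelers not called. Chd7 and Chd8 averaged 19.1 ± 1.4 and 38.7 ± 4.95 TPM, and Chd1, which in human cells binds H3 lysine 4 methylation, 32.6 ± 6.7 TPM.

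Of 4 genes of DNA methylation, 3 were called above. Tet2 (chromosome 3, 133463679 to 133545139), which oxidises methylated cytosine, had 293, 50.02 and 86.7 TPM in replicates 1 to 3 (level 4.28 ± 1.08, adjusted p = 0.000531). Replicate 1 stood above the others, and its 13073 expected counts were more than the 6383 and 8965 of the deeper libraries. Tet3 had 25.8, 24.5 and 25.7 TPM (adjusted p = 0.000978), and its call was lost in the alignment-free quantification (0.0536). The maintenance enzyme Dnmt1 had 3.21, 3.76 and 4.13 TPM and was not called, while the de novo enzyme Dnmt3a had 51.0, 56.0 and 52.7 TPM (level 3.26 ± 0.31, adjusted p = 9.87e-05). The libraries of Dnmt1 and Dnmt3a did not overlap.

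Differences between 20 pairs of related genes were taken within each library, as log2(TPM + 1) of the first minus that of the second. A total of 18 pairs had the same sign in 3 of 3 libraries, and 8 were at least 2 log2 units apart. Brd2 minus Brd3 was 5.09 ± 0.52 (SD, n = 3), with 5.68, 4.72 and 4.87 in replicates 1 to 3. Coding isoforms held 14.2% of the TPM of Brd2 and 65.0% of that of Brd3, so this difference covers unlike isoform types. The H3 demethylase pairs also stood apart: Kdm5a minus Kdm5b was 2.98 ± 0.37 (3.37, 2.62 and 2.96 in replicates 1 to 3), Kdm2a minus Kdm2b 2.88 ± 0.15 (3.02, 2.72 and 2.89) and Kdm4a minus Kdm4b 2.15 ± 0.41 (2.55, 1.73 and 2.18). The most abundant isoform of Kdm5a, Kdm5a-206, is typed nonsense-mediated decay and held 25.1% of the gene's TPM. For Kdm5b it was the coding isoform Kdm5b-203, with 38.8%. The difference between Kdm5a and Kdm5b thus also covers unlike isoform types, and its size in coding isoforms alone was not tested. In SWI/SNF, Smarca4 minus Smarca2 was 2.66 ± 0.39 (2.30, 3.07 and 2.62) and Arid1a minus Arid1b 2.13 ± 0.82 (3.04, 1.45 and 1.90). Tet2 minus Tet3 was 2.06 ± 1.26, and ran from 1.00 in replicate 2 to 3.46 in replicate 1. The main coding isoform Tet2-201 held 25.6% of the TPM of Tet2. The coding isoforms Tet3-203 and Tet3-202 held 33.9% and 23.4% of that of Tet3, so isoform types were unlike here too. Dnmt1 minus Dnmt3a was -3.53 ± 0.13 (-3.63, -3.58 and -3.39). With alignment-free TPM several of these sizes were smaller: Kdm4a minus Kdm4b was 1.14, Smarca4 minus Smarca2 1.14 (1.70 with posterior mean TPM), Arid1a minus Arid1b 1.87 and Dnmt1 minus Dnmt3a -2.35, so that the first 3 of these 4 were no longer 2 log2 units apart. Brd2 minus Brd3 was 4.23, Kdm5a minus Kdm5b 2.93, Tet2 minus Tet3 2.32 and Kdm2a minus Kdm2b 2.07 there, and 17 pairs had the same sign in 3 of 3 libraries. An exact permutation test that flips signs over 3 libraries (two-sided) cannot give a p below 0.25, which 18 pairs reached (0.278 after adjustment over 20 pairs), so no pair could pass a threshold of 0.05.

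The smaller differences included Hdac1 minus Hdac2 at 1.95 ± 0.39, Ezh1 minus Ezh2 at 1.58 ± 0.15 and Kat2a minus Kat2b at 1.24 ± 0.53. Coding isoforms held 22.6% of the TPM of Hdac1 and 61.1% of that of Hdac2. For Ezh1 and Ezh2 the shares were 44.8% and 25.3%, and for Kat2a and Kat2b 34.4% and 82.9%. The differences in these pairs thus cover unlike isoform types. The second gene was the higher for Setd1a minus Setd1b (-1.86 ± 0.51), Kmt2c minus Kmt2d (-1.73 ± 0.32), Ehmt1 minus Ehmt2 (-1.56 ± 0.32) and Chd7 minus Chd8 (-0.98 ± 0.26). Crebbp minus Ep300 (-0.09 ± 0.32) and Setdb1 minus Setdb2 (-0.40 ± 1.51) changed sign between libraries. For Setdb1 minus Setdb2 the value was -2.13 in replicate 1, against 0.60 and 0.34 in replicates 2 and 3. With alignment-free TPM the difference was 0.29 for Kat2a minus Kat2b, -0.77 for Setd1a minus Setd1b, -1.01 for Ehmt1 minus Ehmt2, -2.27 for Kmt2c minus Kmt2d and 2.09 for Hdac1 minus Hdac2. With the deposited posterior mean TPM, Kdm4a minus Kdm4b turned to -0.53.

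**Figure D2:**
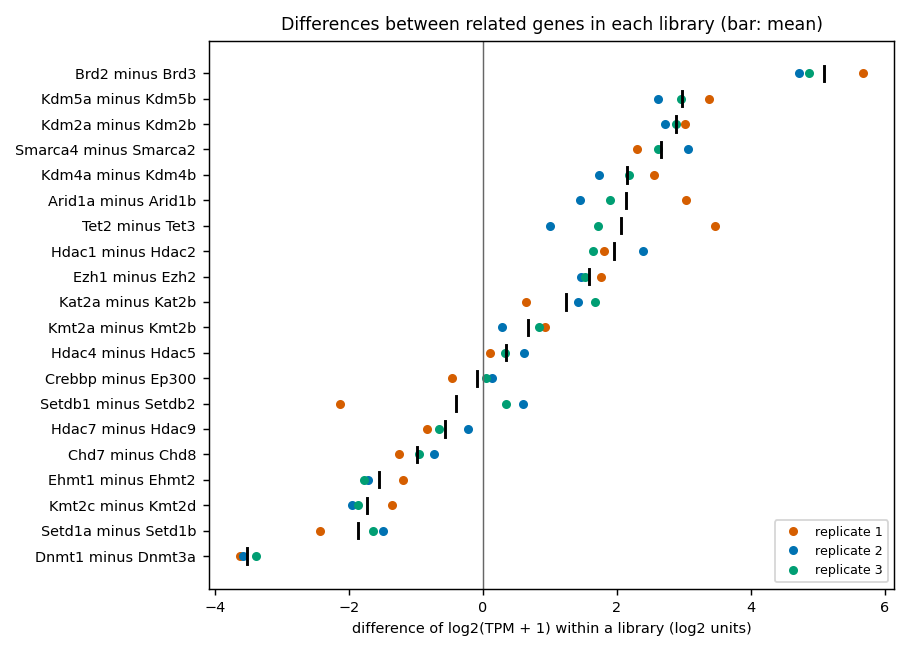
Difference of log2(TPM + 1) between the genes of 20 pairs in each of 3 libraries (points, coloured by replicate) with the mean (bar), ordered by mean; right of 0 the first gene is higher. Brd2 minus Brd3 lies at 5.09 and Dnmt1 minus Dnmt3a at -3.53, and only Crebbp minus Ep300 and Setdb1 minus Setdb2 have points on both sides of 0.

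The annotation lists 573 isoforms for the 58 genes, of which 285 are typed protein coding, 162 retained intron, 79 processed transcript and 47 nonsense-mediated decay. At least 1 retained-intron isoform is listed for 44 genes. Reads over splice sites were not examined, so in this fraction such isoforms and transcripts not yet spliced cannot be told apart. The median share of a gene's TPM in retained-intron isoforms was 35.5% over the 58 genes, against 32.0% over 8197 protein-coding genes with more than 1 isoform. By library the median was 43.7%, 28.1% and 32.0% in replicates 1 to 3, against 36.9%, 27.9% and 28.1%, so replicate 1 was the highest for both. As a share of expected counts it was 10.4%, against 14.3%. Among genes with such an isoform the median was 40.3%, against 45.7%, and 11 of the 58 genes (19.0%) had over 50% of TPM there, against 29.8%. The 58 genes were thus on either side of the coding genes depending on the measure.

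The 6 genes with the highest retained-intron share were Eed, Hdac1, Setdb1, Hdac7, Brd2 and Suz12. Eed had 89.7%, 83.0% and 78.6% of its TPM in such isoforms in replicates 1 to 3, or 83.8% ± 5.63, and 52.7% of its counts. Hdac1 had 82.5%, 74.8% and 74.8%, or 77.4% ± 4.43, and 52.2% of its counts. For Setdb1 the shares were 77.9%, 70.3% and 72.4% of TPM, and for Hdac7 77.0%, 66.7% and 73.5%, and both also had over 50% of their counts there (67.6% and 73.0%). Brd2 had 77.8%, 63.1% and 62.6% of its TPM but 29.3% of its counts in such isoforms. Suz12 had 76.1%, 59.5% and 51.7% of its TPM and 16.0% of its counts there. Smarcb1, named after its values were seen, had the highest share of counts, 80.6% ± 10.4, with 52.0% of TPM.

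The ends of a retained intron are printed for 4 genes because they are the splice sites left joined to the intron in these isoforms as annotated. Of 25 genes with a whole annotated intron inside a retained-intron isoform, 24 had an intron with GT at its start and AG at its end, and Kdm5b, which began with GC, was the other. Coordinates are mm10: Brd2-204 keeps chr17:34112979-34113176 (198 bases, minus strand), Hdac1-206 keeps chr4:129516637-129516899 (263 bases, minus strand), Setdb1-204 keeps chr3:95337266-95338345 (1080 bases, minus strand) and Tet2-210 keeps chr3:133479366-133480132 (767 bases, minus strand). Each intron lies between coding exons of a coding isoform. The 5′ end is shown as 12 exon bases and 24 intron bases with the first 6 intron bases in capitals, and the 3′ end as 24 intron bases and 12 exon bases with the last 3 intron bases in capitals.
Brd2-204 5′ end: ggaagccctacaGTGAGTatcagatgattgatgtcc
Brd2-204 3′ end: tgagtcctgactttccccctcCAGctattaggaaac
Hdac1-206 5′ end: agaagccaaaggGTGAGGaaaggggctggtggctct
Hdac1-206 3′ end: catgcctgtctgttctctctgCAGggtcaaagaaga
Setdb1-204 5′ end: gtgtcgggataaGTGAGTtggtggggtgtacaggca
Setdb1-204 3′ end: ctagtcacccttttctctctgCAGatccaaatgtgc
Tet2-210 5′ end: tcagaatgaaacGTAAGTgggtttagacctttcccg
Tet2-210 3′ end: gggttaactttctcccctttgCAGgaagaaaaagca

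Brd2-204 had 71.5, 36.7 and 51.8 TPM in replicates 1 to 3, 21.6% of the gene's TPM and the most of any Brd2 isoform in the alignment-based table. In the alignment-free table it averaged 40.9 TPM (14.5%), below Brd2-217 at 54.3 TPM (19.3%). Hdac1-206 had 16.8, 7.9 and 7.77 TPM (31.3% of the gene), and Setdb1-204 had 2.38, 1.57 and 2.83 TPM (34.9%). Tet2-210 had 49.6, 5.45 and 11.2 TPM (15.4%), so its high library was that of the whole gene. The coding isoform Tet2-201 had 53.6, 19.6 and 36.8 TPM. For 19 of the 58 genes the most abundant isoform was one not typed protein coding. Coding genes at large were not counted this way, so this is not shown to be particular to the 58.

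Levels from coding isoforms alone, an alternative chosen after the values were seen, called 32 of the 58 genes above. The share of all genes called on that scale is not given here. Kmt5a (level 1.33), Eed (0.41), Hdac1 (1.35) and Sirt1 (0.95) were not called on that scale, while Setd1a (1.53) and Kat6a (1.78) were.

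**Figure D3:**
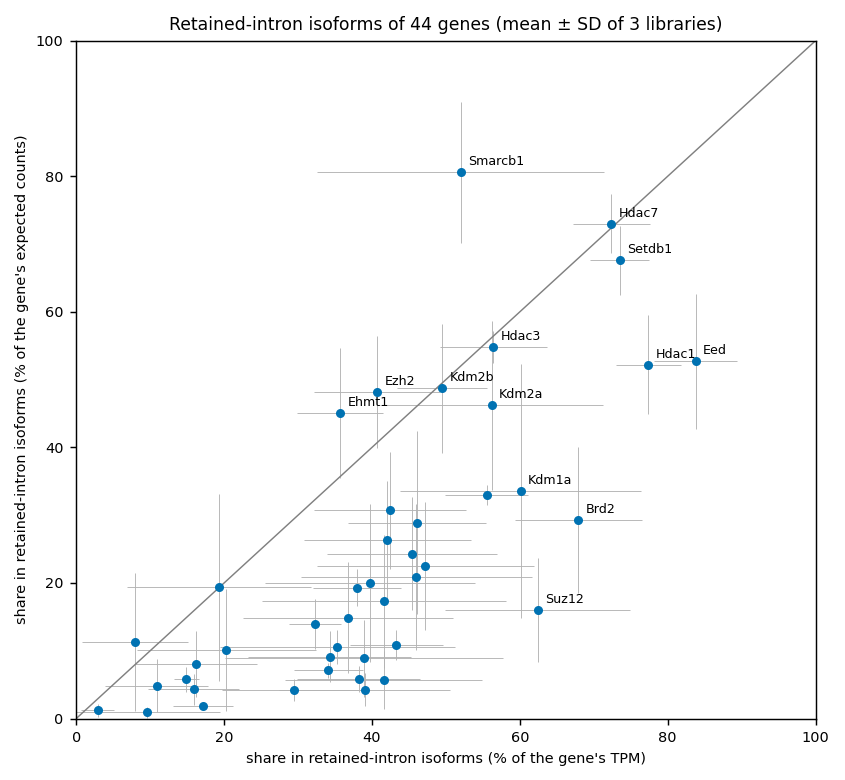
Share of each gene in retained-intron isoforms for the 44 genes with such an isoform, as a percentage of TPM (x axis) and of expected counts (y axis); points are means and lines SDs of 3 libraries, and the diagonal marks equal shares. Eed, Hdac1, Brd2 and Suz12 lie below the diagonal, and Smarcb1 (80.6% of counts, 52.0% of TPM) lies above it.

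Each library was quantified in 2 ways, with an alignment (the values above) and without one. None of the 58 genes was called different between them by limma's treat with a bound of 1 log2 unit in either direction, 0 had an unadjusted p under 0.05, and the share of all genes called was 0.633% for alignment-based higher and 1.92% for alignment-free higher. Dnmt1 was the 1 gene over 1 log2 unit apart, at -1.31 for alignment-based minus alignment-free levels, each taken from its own table's median (adjusted p = 1.0). Its retained-intron isoform Dnmt1-206 held 27.8% of the gene's TPM in the alignment-based table and 76.4% in the alignment-free table. In TPM, which is not set against a median, the gene averaged 3.7 with the alignment and 17.9 without it.

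Replicate 1 departed from the others in both directions. For each gene the level in replicate 1 minus the mean of replicates 2 and 3 was taken; its median was -0.27 log2 units over the 58 genes, against -0.03 over 10520 protein-coding genes. It was over 1 for 4 genes (6.9%, against 5.07%), namely Setdb2 at 2.40, Tet2 at 1.84, Suz12 at 1.32 and Arid1a at 1.08. It was under -1 for 5 genes (8.62%, against 3.46%), namely Kdm6b at -1.54, Kmt2d at -1.24, Dot1l at -1.17, Kdm4b at -1.10 and Hdac4 at -1.01. On log2 CPM with TMM factors, where the median coding gene shifted by -0.14, the counts relative to that shift were 2 and 10. Arid1a and Suz12 were not among the 2: their log2 CPM of 7.06, 7.07 and 7.31 for Arid1a and of 5.31, 4.42 and 4.96 for Suz12 put replicate 1 lowest for Arid1a and highest for Suz12. The median SD of log2 CPM was 0.37 over the 58 genes, against 0.36 over protein-coding genes and 0.40 over all genes tested.

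GC content moved with this offset. Across the 58 genes the offset and the GC content of the most abundant coding isoform had Pearson's r of -0.63 and Spearman's rho of -0.63, and across 10491 protein-coding genes -0.52 and -0.53; genes share the libraries and are not independent replicates, so no p is given. The 10 genes with the lowest offsets had GC contents of 56.7% to 60.2%, and the 10 with the highest offsets 39.6% to 56.7%. Arid1a, at 56.7%, was in the second set on the TPM scale. With transcript length the offset had r of -0.14 over the 58 genes. The part of GC content in the offset was not tested, and starting amount, depth and replicate cannot be told apart.

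**Figure D4:**
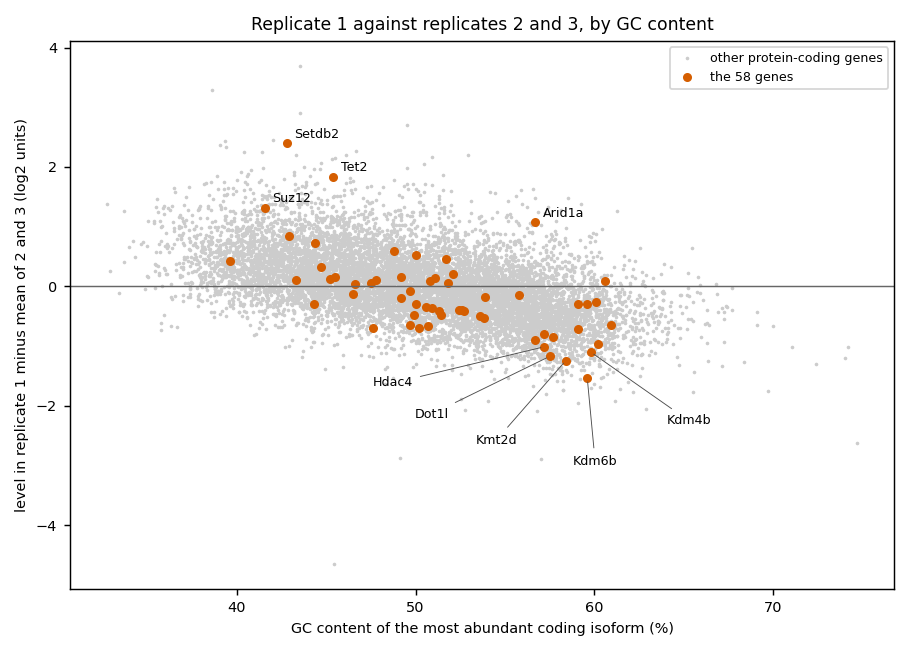
Level in replicate 1 minus the mean of replicates 2 and 3 (log2 units) against GC content of the most abundant coding isoform (%) for the 58 genes (orange) and other expressed protein-coding genes (grey); genes over 1 log2 unit from 0 are named. Setdb2 (2.40) and Tet2 (1.84) are at the upper left and Kdm6b (-1.54) and Kmt2d (-1.24) at the lower right, and Arid1a (1.08) lies apart from the slope.

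The largest spreads on log2 CPM were those of Setdb2 (1.29), Kdm6b (1.07), Hdac5 (0.95), Dot1l (0.93) and Ehmt2 (0.90). Kdm6b had a log2 CPM of 6.85, 8.87 and 8.47 in replicates 1 to 3, Dot1l 7.65, 9.44 and 8.95, and Ehmt2 5.93, 7.63 and 7.28. In these 3 genes replicate 1 was the low library and the other libraries were close to each other. Setdb2, at 5.61, 3.19 and 3.64, went the other way.

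Other genes of the same pathways were also called above more often than below, but at a lower median level. Of 94 such genes, 89 passed the count minimum, 40 were called above and 2 below, and the median level was 1.24. Of expressed protein-coding genes, 24.1% were called above and 19.5% below, and the lists named next are small. The share above was highest in the remodelers (11 of 19) and readers (7 of 12) and lowest in the deacetylases and corepressors (2 of 12). The highest by mean TPM were the JmjC-domain gene Jmjd1c (87.7 ± 40.4 TPM), the remodeler Chd2 (87.6 ± 17.0 TPM) and the bromodomain gene Brwd1 (80.5 ± 9.66 TPM). The lowest over the minimum were the SWI/SNF subunit Smarcd3 (0.283 ± 0.107 TPM, called below), the de novo DNA methyltransferase Dnmt3b (0.607 ± 0.22 TPM, called below) and the H3 lysine 9 methyltransferase Suv39h2 (1.16 ± 0.909 TPM, not called).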

How the data were processed

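Chromatin-fraction RNA of lipid A-stimulated macrophages was measured by total RNA-seq in 3 replicate libraries, each with 3 deposited tables. Expected counts and TPM came from a gene and a transcript table of the authors, made with an alignment; TPM of a second transcript table were made without one. Column names are those of RSEM and kallisto, per the file headers, and the build and annotation are mm10 and GENCODE M21, per the deposited description files. Effective lengths, another deposited column, were used for the count models. For the aligner, versions and strand settings, nothing is stated in the sources used here. TPM is scaled to a fixed sum, so an abundant RNA moves all others. All 58 symbols were matched in the alignment-free tables to gene IDs.

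Levels, log2(TPM + 1) minus the median of 10520 expressed protein-coding genes, were tested with limma 3.58.1 (treat, bound of 1 log2 unit, intercept only, R 4.3.3) over the 13434 genes whose expected counts averaged at least 10, with Benjamini-Hochberg adjustment at 0.05. The pseudocount of 1 understates differences between low genes. Log2 CPM (prior count 2) used TMM factors of 1.439, 0.726 and 0.956 from edgeR 4.0.16 on rounded expected counts. As alternatives, edgeR's quasi-likelihood test and DESeq2 1.42.0 were run on rounded expected counts with effective lengths; since edgeR's own test against a bound could not be fitted with an intercept alone, it was computed from the deviance at each bound. The level test was also run on simulated counts with the same dispersion for every gene and no offset between libraries. The real libraries differ in both, so that run does not check the calls given here.

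Replicates are separate biological replicates per the labels but share 1 donor label, so p-values measure the spread between these libraries, which may be technical. The limits that a count of 0 allows cover counting error only; the reads had no molecular identifiers and are not independent molecules. The members and all lists were chosen with earlier results of these data known. Values in every library are given for the 10 highest and 6 lowest genes by TPM, pairs at least 2 log2 units apart, the 6 highest retained-intron shares and the 5 largest SDs; the 3 highest and 3 lowest other pathway genes are named with their means. Alternatives comprised the pseudocount, the count minimum, the reference, the quantification and leaving out each replicate. Protein sequences were not used here.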

Additional observations from a re-analysis of the deposited data

How the results depend on the processing

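Over all alternatives but the count minimum and coding isoforms alone, the number of the 58 genes called above stayed between 31 and 35: it was 34 with a pseudocount of 0.1 TPM, 35 with the median of all genes as reference (a shift of -0.20), 33 with alignment-free TPM, and 35 with posterior mean TPM, edgeR or DESeq2, and 34 genes were called by limma, edgeR and DESeq2 alike. With no minimum count it was 43 (the reference shifted by -0.95), while 19 were above and 3 below when the minimum was 100 (a shift of 1.07; fewer, higher genes form the reference). Leaving out a replicate gave 31 to 34 above and 0 below. The share of all genes called is not given for any of these alternatives, so their counts cannot be set against genes at large. Of the other pathway genes, 17 were called above with a minimum of 100, and 4 were called below with a pseudocount of 0.1 TPM, alignment-free TPM, edgeR or DESeq2, 1 with coding isoforms alone, and 1 to 4 when a replicate was left out.

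Levels near the reference changed sign in genes that were not called. With a minimum of 100 they were -0.31 for Setd1a, -0.68 for Setdb1, -0.28 for Setdb2, -0.81 for Ezh2, -0.83 for Kdm4b, -0.10 for Kdm7a, -0.43 for Kat2a, -0.04 for Kat6a, -0.21 for Kat7, -0.42 for Hdac2, -0.31 for Hdac3, -0.77 for Hdac4, -0.73 for Brd3, -0.78 for Smarcb1 and -0.55 for Arid1b. With no minimum they were 0.84 for Kdm2b, 0.77 for Kdm5b, 0.34 for Kat2b, 0.90 for Hdac5, 0.49 for Hdac9, 0.91 for Smarca2 and 0.68 for Dnmt1. With alignment-free TPM they were -0.09 for Setdb1, 0.57 for Kdm2b, -0.14 for Kat2a, 0.76 for Smarca2, -0.17 for Smarcb1 and 1.04 for Dnmt1. Coding isoforms alone gave -0.30 for Setdb1, -0.44 for Ezh2, 0.00 for Kdm5b, 0.22 for Hdac9, 0.05 for Smarca2 and 0.04 for Dnmt1. The median of all genes gave 0.09 for Kdm2b, 0.03 for Kdm5b, 0.16 for Hdac5 and 0.16 for Smarca2, and posterior mean TPM 0.21 for Kdm2b, 0.33 for Hdac5 and 0.70 for Smarca2. Without replicate 1 Hdac5 was at 0.18 and Smarca2 at 0.09, and Kdm4b ran from -0.04 (without replicate 2) to 0.62 as replicates were left out. Among pairs, Setdb1 minus Setdb2 ran from -0.89 without replicate 2 to 0.47 without replicate 1, Crebbp minus Ep300 was 0.09 without replicate 1, and 0.10 with alignment-free TPM, and Kdm4a minus Kdm4b -0.53 with posterior mean TPM. The causes were not tested.

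The median retained-intron share was 10.4% by expected counts. The median SD of the 58 genes was 0.33 with a minimum of 100 and 0.14 to 0.49 when a replicate was left out, the lowest without replicate 1. On log2 CPM, an alternative chosen after the values were seen, 2 genes were over 1 log2 unit higher in replicate 1 and 14 over 1 lower. No paired analysis was possible because the series has 1 group. Depth limits Hdac7 most, with 53 to 159 counts.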
